A study of Mus musculus with 12 samples.

Results

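The genes described here are 35 amino acid stress genes that act under, or are commonly assigned to, the transcription factor Atf4, and they were found in the deposited tables by gene symbol. Of 54446 genes listed, these 35 take 36 rows, because Ddit3 has a second, overlapping row that reached at most 0.394 TPM and was left aside. 34 of the 35 were among the 15727 genes tested, and the cystine transporter gene Slc7a11, with a mean under 1 TPM, was not. They fall into 11 stress factors and their regulators, 8 enzymes of serine, one-carbon, asparagine and proline synthesis, 9 amino acid transporters (8 tested), and 7 genes for tRNA synthetases and the tRNA exporter Xpot. RNA depleted of ribosomal RNA had been sequenced from 12 libraries of mouse embryonic stem (ES) cells in 6 groups of 2. The groups were KH cells and DNMT3ABKO cells, each untreated (0 h, the control) and after 72 or 144 h with Ink128, which blocks the kinase mTOR (mTORi) and places ES cells in a dormant state. KH is the wild-type line, called KH2 in the methods, and the DNMT3ABKO line is a knockout of Dnmt3a and Dnmt3b, the enzymes of de novo DNA methylation. The labels place E14 before both line names. Each genotype was a single line, so genotype and line cannot be told apart, and no untreated culture was sampled at 72 or 144 h, so time in culture and inhibitor cannot be told apart either. According to the methods, both lines grow on a layer of inactivated fibroblasts (feeders), and live single cells were sorted before extraction. The labels do not tie the replicates to separate cultures, although the study's reporting notes speak of independent repeats, and the p-values below measure the spread between these libraries.

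Atf4 is the shared output of the kinases that phosphorylate the translation factor eIF2 when amino acids run short, when unfolded protein accumulates or when haem or virus is sensed. Its own mRNA is mainly controlled at translation through upstream open reading frames, so that the amount of Atf4 mRNA need not follow the amount of Atf4 protein. Atf4 binds with C/EBP partners to a composite element and switches on genes that import amino acids, make serine, glycine, asparagine and proline, charge tRNAs and, under lasting stress, limit growth. mTOR complex 1 is known to raise Atf4 translation and mRNA stability in growing cells without any eIF2 stress, and several of these genes are therefore known both as stress genes and as mTOR targets.

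The composite element is shown first because it is the sequence through which many members are known to be controlled. The letters TGATGNAA, or TTNCATCA on the other strand, were searched in RefSeq promoter sequences (GRCm38.p6, 250 bases before to 50 after a gene's start, windows of 300 bases). Of the 30 members with such a sequence, 11 (36.7%) held the element, against 1219 of all 27025 genes (4.51%). It was not particular to the members: 3 of 8 other cytosolic tRNA synthetases (37.5%) and 3 of 11 other targets of Atf4 and CHOP (27.3%) held it. It was in 1 of 11 ER chaperone genes and 1 of 11 other amino acid transporters. It was in 0 of 11 eIF2 genes, 0 of 14 mitochondrial tRNA synthetases and 0 of 8 other folate and glycine enzymes. The holders were Atf3, Chac1, Nupr1, Trib3 and Vldlr among the stress factors, Asns and Pycr1 among the synthesis enzymes, Slc7a11 and Slc1a4 among the transporters, and 2 of the synthetase genes. Nars, Wars, Slc7a3, Slc7a5 and Slc1a5 had no entry. Below are examples of tested members with an element wholly upstream of the RefSeq start, where the bases soon after that start occur in an annotated transcript. Starts of transcripts were not compared. Each is shown with 10 bases on either side, 5′ to 3′ in the direction of the gene, the element in capitals.
Atf3: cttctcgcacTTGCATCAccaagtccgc
Chac1: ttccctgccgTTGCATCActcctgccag
Nupr1: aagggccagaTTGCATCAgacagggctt
Vldlr: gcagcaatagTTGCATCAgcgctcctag
Asns: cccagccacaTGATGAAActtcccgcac
Pycr1: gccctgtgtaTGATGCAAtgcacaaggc
The windows lie at chr1:191183426-191183453 on the minus strand (Atf3), chr2:119351039-119351066 on the plus strand (Chac1), chr7:126625563-126625590 on the minus strand (Nupr1), chr19:27216810-27216837 on the plus strand (Vldlr), chr6:7693215-7693242 on the minus strand (Asns) and chr11:120643834-120643861 on the minus strand (Pycr1). Those of Atf3, Nupr1, Vldlr and Asns lie within the bounds that the deposited values give for these genes. Those of Chac1 and Pycr1 lie upstream of them. A match describes the letters in these windows and no binding was measured.

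The values are TPM, which state each gene's length-corrected share of a library's RNA, so that levels can be compared between genes, whereas total RNA per cell was outside what they can show. After spike-in scaling, the paper reports global repression of transcripts under mTORi in wild-type cells and lower global transcription in the Dnmt3a/b knockout. A level that held or rose below is such a share, and its amount per cell was not tested. The read depth behind a value is unknown from the tables, because the unit carries no counts. Between 15178 and 15811 genes per library reached 1 TPM. Replicates correlated across genes with r of 0.985 in untreated DNMT3ABKO cells and of 0.9935 to 0.9957 in the other 5 groups, and no pair was identical. Dnmt3b, a check of the labels, stood at 142 to 258 TPM in KH and 12.7 to 27.5 TPM in DNMT3ABKO libraries, and Dnmt3a at 54.7 to 144 and 7.35 to 21.9 TPM. The cultures held RNA of other cell types in amounts that moved with treatment. The summed level of 15 fibroblast genes ran from 1865 to 1985 TPM in untreated KH cells, 890 to 911 at 72 h and 499 to 590 at 144 h, and in DNMT3ABKO cells from 2163 to 2295, 746 to 763 and 347 to 361. Fn1, which was at 440 to 526 TPM in KH cells at 144 h, made up most of the late sums, and without it (left out after its values were seen) the other 14 went from 1328 to 1402 TPM to 305 to 312 and 58.9 to 63.9 in KH cells and from 1578 to 1661 to 242 to 268 and 64.7 to 68.8 in DNMT3ABKO cells. The sum of 10 macrophage genes went from 282 to 304 TPM to 183 to 189 and 20.9 to 21.3 in KH cells, and from 245 to 271 to 123 to 129 and 36.7 to 37.8 in DNMT3ABKO cells, and without Cd68 the late sums were 5.58 to 6.47 and 14.9 to 15.1 TPM. The sum of 10 ES cell genes, of which Dppa5a was the largest, went from 4657 to 4971 to 7138 to 7247 TPM between 0 and 144 h in KH cells and from 4661 to 4729 to 7076 to 7123 in DNMT3ABKO cells, where 9 of 10 were called higher in KH cells and 7 higher and 1 (Utf1) lower in DNMT3ABKO cells. No listed fibroblast gene was at 0 in both libraries of a group, and 1 macrophage gene was, in KH cells at 144 h. In bulk libraries, fewer cells of a type and less RNA per cell cannot be told apart, and the part of these shifts in the changes below was not tested.

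**Figure D1:**
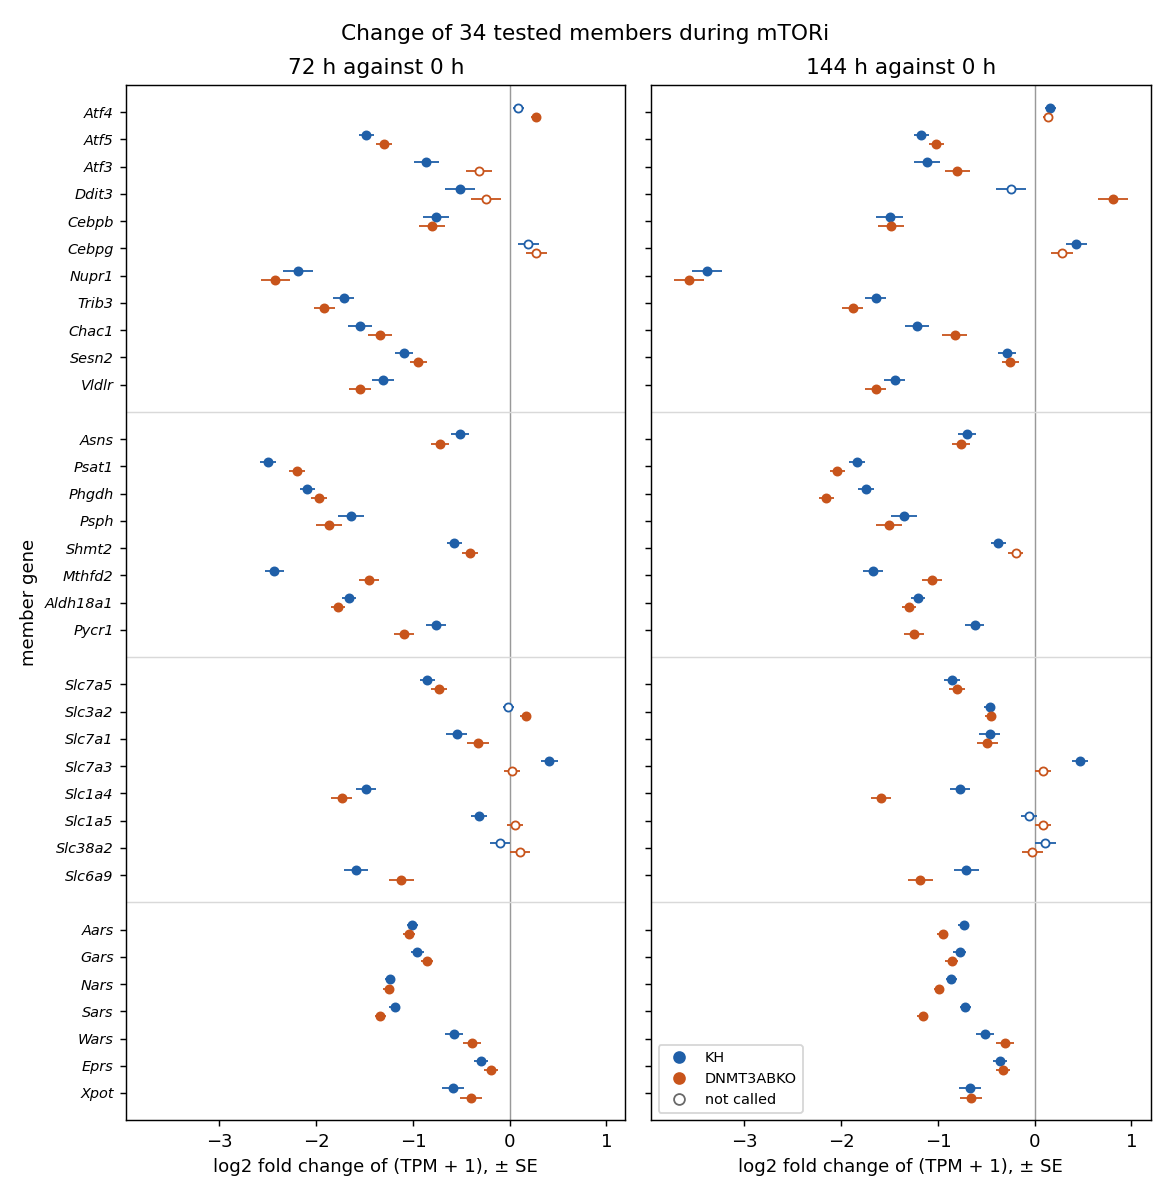
Log2 fold change of TPM + 1 from 0 h, with its standard error, for the 34 tested members (rows, grouped from top to bottom as stress factors, synthesis enzymes, transporters and synthetases) at 72 h (left) and 144 h (right), in KH (blue) and DNMT3ABKO cells (orange), with open circles for members not called. Most circles lie left of 0 in both lines, Atf4 itself lies near 0, and Nupr1, Psat1 and Phgdh are among those farthest to the left.

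Most of the amino acid stress genes had a lower share of the RNA during mTORi than before it, in both lines and at both times, although the mRNA of Atf4 itself did not. In KH cells at 72 h, 29 of the 34 tested members were called lower (limma, Benjamini-Hochberg adjusted p under 0.05 over all tested genes), where 19.5% of all tested genes were, and 1 was called higher, where 28.3% of all genes were. At 144 h in KH cells 28 were lower and 3 higher, against 23.9% and 27.4% of all genes. In DNMT3ABKO cells 26 were lower and 2 higher at 72 h, against 21.6% and 34.3% of all genes, and 27 were lower and 1 higher at 144 h, against 26.2% and 31.4%. The median log2 fold change of the tested members was -0.91 at 72 h and -0.73 at 144 h in KH and -0.90 and -0.84 in DNMT3ABKO cells, where the median of all tested genes lay between 0.05 and 0.12. 25 members were lower in all 4 of these comparisons, and the comparisons within a line share their 0 h libraries. Median-ratio scaling shifted the median of all genes by -0.10 in KH and -0.13 in DNMT3ABKO cells at 72 h, and with it the higher calls in DNMT3ABKO cells at 72 h went from 2 to 0 and the lower calls from 26 to 27.

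The fall was not seen in Atf4 mRNA, which was among the more abundant members. Atf4 stood at 221 and 234 TPM in untreated KH cells, at 246 and 239 at 72 h and at 251 and 259 at 144 h. The DNMT3ABKO libraries had it at 218 and 216, 263 and 262, and 238 and 240 TPM. Every treated library lay above every untreated library of its line, by little. The log2 change from 0 h was 0.16 ± 0.05 (SE) in KH cells at 144 h (adjusted p = 0.0308) and 0.27 ± 0.05 in DNMT3ABKO cells at 72 h (adjusted p = 0.00197). With scaling these became 0.10 and 0.14 and neither was called, nor was either in a fit of the groups compared alone. The KH call was also lost with a replicate block and without most single libraries (0.12 to 0.18). In the other 2 comparisons from 0 h it was 0.09 and 0.14 and was not called (adjusted p = 0.201 and 0.0526).

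Among the factors that act with Atf4, the C/EBP proteins went separate ways. Cebpb, a bZIP factor that pairs with Atf4 and is also active in fibroblasts and myeloid cells, stood at 17.5 and 18.3 TPM, then 11.3 and 9.12, then 5.76 and 5.60 TPM in KH cells. Levels in DNMT3ABKO cells went from 15.7 and 21.4 to 9.93 and 10.2 and to 6.06 and 5.76 TPM. The 3 times did not overlap in either line, and the change at 144 h was -1.50 ± 0.14 in KH cells (adjusted p = 1.34e-05) and -1.49 ± 0.14 in DNMT3ABKO cells (adjusted p = 8.84e-06). Cebpg, a smaller partner of Atf4 that is needed for many of its target genes, averaged 15.1 ± 1.96 TPM (SD, n = 2) before and 20.7 ± 1.98 TPM after 144 h in KH cells, a rise of 0.43 ± 0.11 (adjusted p = 0.00873) that was not called without replicate 1 of either time (0.31 and 0.34). Its change was 0.28 at both times in DNMT3ABKO cells and was not called (adjusted p = 0.0572 and 0.0528).

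Atf5, a close relative of Atf4 that is likewise controlled at translation and drives mitochondrial stress genes, fell in both lines. Its level went from 41.1 and 42.9 TPM to 15.6 and 13.3 and then 18.4 and 17.8 TPM in KH cells. DNMT3ABKO cells went from 50.1 and 50.1 to 19.9 and 19.7 and then 24.9 and 23.7 TPM. All treated libraries lay well under all untreated ones, at 34.4% and 43.1% of the 0 h mean in KH cells and at 39.5% and 48.5% in DNMT3ABKO cells. The changes in KH cells were -1.48 ± 0.08 and -1.17 ± 0.08 (adjusted p = 1.21e-06 and 2.02e-06).

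Atf3, an early stress factor that represses as well as activates its targets, was a low gene. It stood at 6.90 and 7.73 TPM, 3.57 and 3.58, and 2.50 and 3.22 TPM in KH cells, and at 4.08 and 3.90, 3.47 and 2.59, and 1.96 and 1.78 TPM in DNMT3ABKO cells. The untreated KH libraries were the highest. Atf3 was lower at both times in KH cells (-0.86 ± 0.13 and -1.11 ± 0.13, adjusted p = 0.000547 and 7.9e-05) and at 144 h in DNMT3ABKO cells (-0.80 ± 0.13, adjusted p = 0.000516), and at 72 h in DNMT3ABKO cells the change of -0.32 was not called (adjusted p = 0.0642).

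Ddit3, which encodes the stress factor CHOP, took a course of its own. In KH cells it stood at 15.5 and 15.4 TPM before treatment, at 9.56 and 11.6 at 72 h and at 12.3 and 13.5 at 144 h. In the knockout line it stood at 15.0 and 11.6, 10.8 and 11.2, and 20.6 and 27.8 TPM. The late DNMT3ABKO libraries were the highest of all 12 and differed from each other. The change in KH cells was -0.51 ± 0.15 at 72 h (adjusted p = 0.0197), and that in DNMT3ABKO cells was 0.81 ± 0.15 at 144 h (adjusted p = 0.00121). The first was not called without KH 0 h replicate 1 or 2 (-0.51 and -0.52), without KH 72 h replicate 1 (-0.39) or with no filter on low genes.

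The genes that lie downstream of these factors and restrain them fell further. Nupr1, a small chromatin protein induced by stress, stood at 39.9 and 44.0 TPM in untreated KH cells, at 7.93 and 8.97 at 72 h and at 2.54 and 3.78 TPM at 144 h. The DNMT3ABKO values were 38.6 and 39.0, 6.41 and 6.47, and 2.79 and 1.96 TPM. The 3 times were far apart in both lines, and at 144 h 7.53% of the 0 h mean was left in KH cells and 6.11% in DNMT3ABKO cells (log2 changes of -3.38 ± 0.15 and -3.57 ± 0.15, adjusted p = 1.17e-07 and 3.8e-08). Trib3, a pseudokinase that inhibits Atf4 and CHOP, went from 23.3 and 26.0 TPM to 7.12 and 6.50 and then 6.92 and 7.50 TPM in KH cells. The DNMT3ABKO libraries took it from 19.1 and 16.1 to 3.80 and 4.04 and then 3.81 and 4.28 TPM. It dropped by 72 h and then stayed, with changes of -1.71 ± 0.11 and -1.64 ± 0.11 for KH and -1.91 ± 0.11 and -1.88 ± 0.11 for DNMT3ABKO cells (largest adjusted p = 2.62e-06).

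Chac1, an enzyme that degrades glutathione, stood at 5.45 and 6.92 TPM, 1.49 and 1.40, and 2.02 and 2.13 TPM in KH cells. Levels in DNMT3ABKO cells were 3.97 and 4.10, 1.07 and 0.913, and 2.08 and 1.62 TPM. Treated libraries were lower than all untreated ones, and the changes from 0 h were -1.55 ± 0.13 and -1.22 ± 0.13 in KH cells (adjusted p = 1.24e-05 and 3.47e-05) and -1.34 ± 0.13 and -0.83 ± 0.13 in DNMT3ABKO cells (adjusted p = 1.7e-05 and 0.000321). Vldlr, a lipoprotein receptor gene induced by Atf4, went from 2.91 and 3.45 TPM to 0.709 and 0.666 and to 0.505 and 0.557 TPM in KH cells. DNMT3ABKO cells went from 3.36 and 3.08 to 0.512 and 0.382 and to 0.347 and 0.353 TPM. At 144 h, 16.7% and 10.9% of the 0 h means were left (log2 changes of -1.45 ± 0.11 and -1.64 ± 0.11, adjusted p = 4.38e-06 and 1.03e-06).

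Sesn2, a leucine sensor that restrains mTOR complex 1, fell and came back. It stood at 77.2 and 88.1 TPM in untreated KH cells, at 40.3 and 36.0 at 72 h and at 65.5 and 69.6 TPM at 144 h. In the knockout line it stood at 76.3 and 87.0, 41.3 and 42.5, and 68.7 and 67.8 TPM. The lowest libraries were those at 72 h in both lines, with changes of -1.09 ± 0.09 and -0.94 ± 0.09 (adjusted p = 1.32e-05 and 1.89e-05), and at 144 h the changes from 0 h were -0.28 and -0.25 (adjusted p = 0.0237 and 0.0362). Neither late call held with no filter on low genes or without either 144 h library of its line. They were also lost without replicate 2 of the untreated line (-0.19 and -0.16), and the DNMT3ABKO call with a replicate block, with its own groups alone or without either DNMT3ABKO 72 h library.

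**Figure D2:**
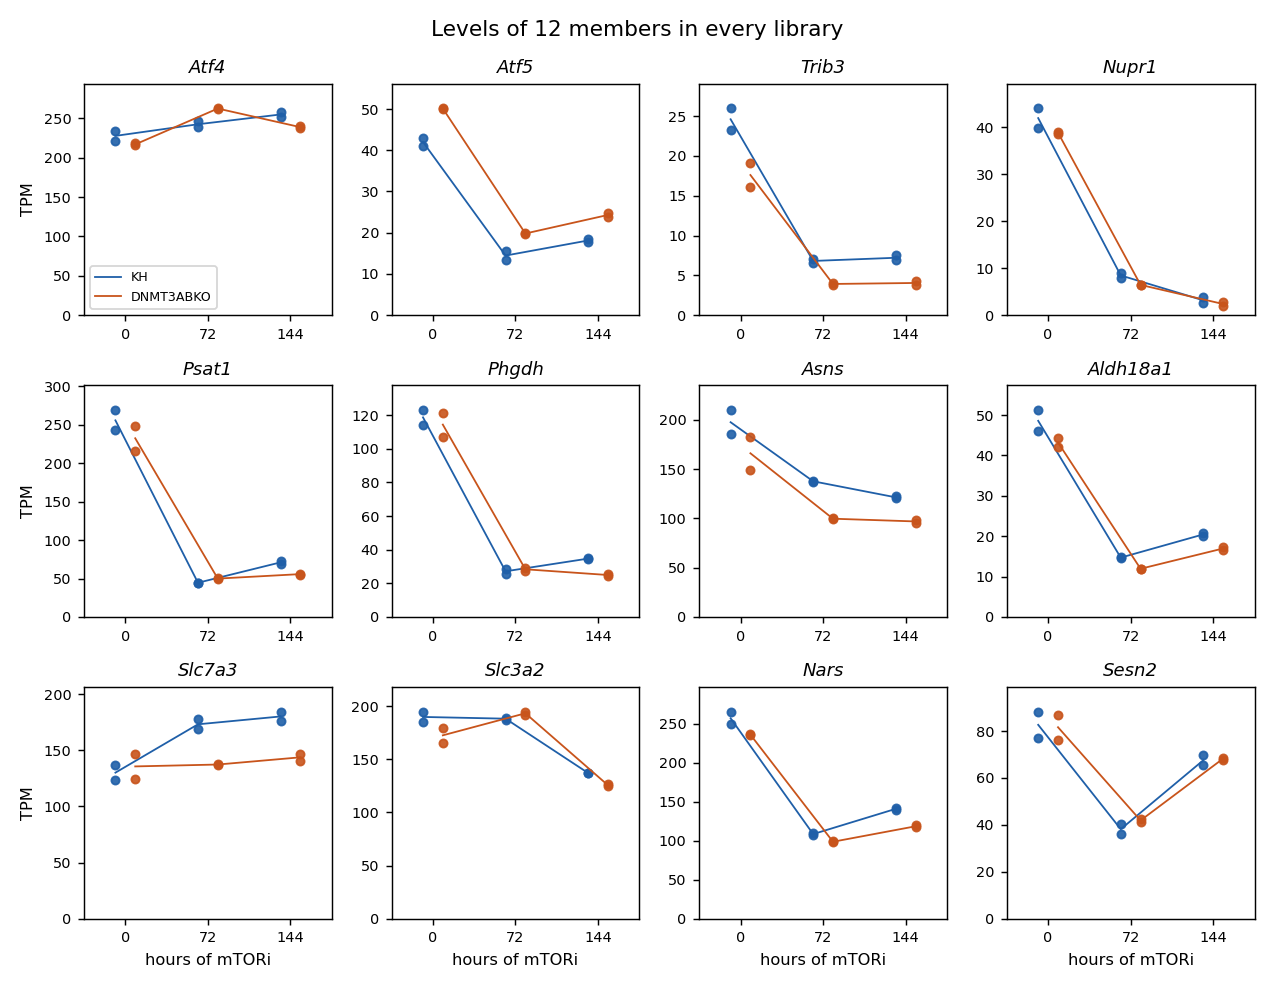
TPM (vertical axes, from 0) at 0, 72 and 144 h of mTORi for 12 members, with 1 point per library and lines through the means of the 2 replicates, in KH (blue) and DNMT3ABKO cells (orange). Atf4 stays between 216 and 263 TPM while Atf5, Trib3, Nupr1, Psat1, Phgdh and Aldh18a1 drop by 72 h, and Sesn2, Nars and Aldh18a1 are higher again at 144 h.

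The enzymes of amino acid synthesis were the group with the lowest median, at -1.65 in KH and -1.61 in DNMT3ABKO cells at 72 h. All 8 were lower at both times in KH cells and at 72 h in DNMT3ABKO cells, and 7 of 8 were lower at 144 h in DNMT3ABKO cells, where Shmt2 was not called (adjusted p = 0.0543). The 3 enzymes that make serine from a glycolytic intermediate fell together. Phgdh, the first of them, stood at 114 and 123 TPM, 28.5 and 25.8, and 34.6 and 34.8 TPM in KH cells. The DNMT3ABKO libraries had it at 121 and 107, 27.5 and 29.2, and 25.6 and 24.3 TPM. Psat1, the second, went from 243 and 269 TPM to 44.2 and 44.8 and to 68.8 and 73.2 TPM in KH cells. Levels in DNMT3ABKO cells went from 216 and 249 to 51.0 and 48.8 and to 55.2 and 56.3 TPM. Untreated and treated libraries were far apart for both genes, with 17.4% of the 0 h mean of Psat1 and 22.9% of that of Phgdh left at 72 h in KH cells (log2 changes of -2.50 ± 0.08 and -2.09 ± 0.08, adjusted p = 1.15e-07 and 2e-07). In DNMT3ABKO cells the 72 h changes were -2.19 ± 0.08 and -1.97 ± 0.08 (adjusted p = 6.56e-08 and 1.09e-07). Psph, the phosphatase that ends the path, stood at 33.5 and 27.7 TPM, 8.63 and 9.60, and 11.2 and 11.4 TPM in KH cells. DNMT3ABKO cells gave 29.4 and 26.3, 7.62 and 6.26, and 8.16 and 10.3 TPM. It too was lower in all treated libraries, by -1.64 ± 0.13 and -1.86 ± 0.13 on the log2 scale at 72 h (adjusted p = 1.22e-05 and 2.84e-06).

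Serine feeds the mitochondrial folate path, whose enzymes Shmt2 and Mthfd2 fell by unequal amounts. Mthfd2, which oxidises the carbon unit taken from serine and is high in growing cells, stood at 95.1 and 108 TPM, 18.6 and 17.3, and 30.1 and 32.1 TPM in KH cells. In the knockout line it stood at 75.4 and 91.2, 28.4 and 31.1, and 40.2 and 38.1 TPM. The treated DNMT3ABKO libraries lay above the KH libraries of the same time although the untreated ones lay below. The 72 h change was -2.43 ± 0.10 in KH cells and -1.45 ± 0.10 in DNMT3ABKO cells (adjusted p = 2.8e-07 and 2.55e-06). Shmt2, which splits serine into glycine and that carbon unit, averaged 137 ± 7.93 TPM before and 91.9 ± 3.95 TPM after 72 h in KH cells, or 67.1% (log2 change of -0.57 ± 0.08, adjusted p = 0.00029).

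Proline and asparagine synthesis differed in size as well. Aldh18a1, the first enzyme of proline synthesis, went from 45.9 and 51.2 TPM to 14.8 and 14.6 and to 20.8 and 20.1 TPM in KH cells. The DNMT3ABKO libraries took it from 42.1 and 44.3 to 11.9 and 11.9 and to 17.3 and 16.6 TPM. The replicates at 72 h were close together and far under 0 h, with changes of -1.66 ± 0.07 and -1.77 ± 0.07 (adjusted p = 4.05e-07 and 1.09e-07). Pycr1, the last enzyme of that path, stood at 13.6 and 15.9 TPM, 8.28 and 8.30, and 8.90 and 9.55 TPM in KH cells. Levels in DNMT3ABKO cells were 15.7 and 17.5, 7.31 and 7.15, and 6.85 and 5.95 TPM. At 144 h the changes were -0.62 ± 0.10 in KH cells and -1.25 ± 0.10 in DNMT3ABKO cells (adjusted p = 0.000659 and 4.08e-06). Asns, asparagine synthetase, the classical amino acid response gene, fell less than both at 72 h in both lines, on the fitted values. It stood at 185 and 210 TPM, 138 and 137, and 120 and 122 TPM in KH cells, and at 149 and 183, 100 and 99.1, and 95.4 and 98.3 TPM in DNMT3ABKO cells. All treated libraries lay under the untreated ones of their line, with changes of -0.52 ± 0.09 and -0.70 ± 0.09 in KH cells (adjusted p = 0.00135 and 0.000167) and -0.72 ± 0.09 and -0.76 ± 0.09 in DNMT3ABKO cells (adjusted p = 0.000115 and 6.35e-05).

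The amino acid transporters were mixed. Of the 8 tested, 5 were lower and 1 higher at both times in KH cells, 4 lower and 1 higher at 72 h in DNMT3ABKO cells, and 5 lower and none higher at 144 h there, where an unadjusted p under 0.05 was reached upwards by 3 of all 34 members. At 72 h the lowest values were in 2 small neutral amino acid carriers. Slc1a4, a carrier of alanine and serine, stood at 12.1 and 12.5 TPM, 3.69 and 3.83, and 6.94 and 6.61 TPM in KH cells. DNMT3ABKO cells gave 10.3 and 12.5, 2.53 and 2.88, and 3.01 and 3.20 TPM. Slc6a9, a glycine carrier, stood at 3.31 and 3.15 TPM, 0.468 and 0.348, and 1.49 and 1.70 TPM in KH cells. In the knockout line it stood at 1.89 and 2.46, 0.458 and 0.453, and 0.495 and 0.300 TPM. Treated libraries of both genes were under all untreated ones, and the 72 h changes were -1.48 ± 0.10 and -1.74 ± 0.10 for Slc1a4 (adjusted p = 4.58e-06 and 9.69e-07) and -1.59 ± 0.13 and -1.12 ± 0.13 for Slc6a9 (adjusted p = 1.05e-05 and 5.47e-05), in KH and DNMT3ABKO cells. At 144 h they were -0.77 and -0.71 in KH cells, where Slc7a5 was at -0.86, and -1.59 and -1.18 in DNMT3ABKO cells.

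The leucine exchanger is built from the light chain Slc7a5 and the heavy chain Slc3a2. Slc7a5 averaged 137 ± 9.45 TPM at 0 h and 75.3 ± 2.65 TPM at 72 h in KH cells (log2 change of -0.85 ± 0.08, adjusted p = 2.87e-05), and 114 ± 11.9 and 68.2 ± 1.65 TPM in DNMT3ABKO cells (-0.73 ± 0.08, adjusted p = 4.26e-05). Slc3a2 averaged 190 ± 6.10 and 188 ± 1.29 TPM in KH and 172 ± 10.1 and 193 ± 1.67 TPM in DNMT3ABKO cells, with changes of -0.01 and 0.16 (adjusted p = 0.888 and 0.0376). With scaling the second was 0.03 and was not called, and its call was also lost with a replicate block, with the groups compared alone and without most single libraries (0.10 without DNMT3ABKO 0 h replicate 2). By 144 h Slc3a2 had fallen to 137 ± 0.236 and 125 ± 1.51 TPM (-0.47 ± 0.06 and -0.45 ± 0.06, adjusted p = 0.000125 and 0.000106). Slc3a2 is also the heavy chain of the cystine exchanger, whose light chain Slc7a11 was a low gene, at 1.15 ± 0.0764, 0.887 ± 0.0327 and 0.109 ± 0.0151 TPM in KH and 0.851 ± 0.121, 0.613 ± 0.0730 and 0.158 ± 0.0599 TPM in DNMT3ABKO cells at 0, 72 and 144 h, with no test.

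Slc7a1 and Slc7a3 both carry arginine and lysine. Slc7a1 averaged 26.1 ± 2.22, 17.5 ± 0.0128 and 18.6 ± 0.780 TPM in KH cells and was lower at both times in both lines (adjusted p = 0.00274, 0.00582, 0.0297 and 0.00365). In DNMT3ABKO cells at 72 h its change of -0.33 became -0.15 without DNMT3ABKO 0 h replicate 2, and it was not called there, without either 72 h library of that line, with no filter or with the groups compared alone. Slc7a3, the more abundant of the pair, stood at 124 and 137 TPM, 178 and 169, and 176 and 184 TPM in KH cells, with all treated libraries above the untreated ones (0.41 ± 0.08 and 0.47 ± 0.08, adjusted p = 0.00304 and 0.00117). The DNMT3ABKO libraries had it at 124 and 147, 137 and 138, and 147 and 140 TPM, with overlapping groups. The difference between lines in its response did not pass the test (adjusted p = 0.105 at 72 h and 0.0833 at 144 h). The glutamine carriers were called in 1 comparison from 0 h. Slc1a5 was lower at 72 h in KH cells (-0.32 ± 0.08, adjusted p = 0.0108), a call lost without replicate 2 of either time (-0.27 and -0.30), and was not called elsewhere from 0 h, with no called difference between lines at 72 h (adjusted p = 0.116). Slc38a2, the other main glutamine carrier and one of the most abundant members at 211 to 276 TPM, was not called from 0 h in either line.

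All 7 genes of the tRNA group were lower at both times in both lines. Nars, the asparaginyl-tRNA synthetase, stood at 249 and 265 TPM, 107 and 110, and 142 and 140 TPM in KH cells. Levels in DNMT3ABKO cells were 235 and 237, 99.2 and 98.2, and 117 and 120 TPM. Replicates were close, and the 72 h changes were -1.24 ± 0.06 and -1.25 ± 0.06 (adjusted p = 4.25e-07 and 1.6e-07). Sars, which charges serine, stood at 182 and 193 TPM, 81.3 and 82.0, and 113 and 114 TPM in KH cells. DNMT3ABKO cells gave 163 and 168, 66.4 and 63.3, and 72.4 and 74.9 TPM, so that the late libraries of the lines were apart. Aars, which charges alanine, stood at 160 and 173 TPM, 83.6 and 81.2, and 99.6 and 99.7 TPM in KH cells. In the knockout line it stood at 141 and 143, 68.1 and 68.9, and 72.7 and 73.2 TPM, and every DNMT3ABKO library was below both KH libraries of its time. The 72 h changes were -1.19 ± 0.06 and -1.34 ± 0.06 for Sars (adjusted p = 7.04e-07 and 1.48e-07) and -1.01 ± 0.06 and -1.04 ± 0.06 for Aars (adjusted p = 1.55e-06 and 6.28e-07). Gars, which charges glycine and was the most abundant member before treatment, averaged 310 ± 21.8 TPM before and 160 ± 0.480 TPM after 72 h in KH cells (-0.95 ± 0.06, adjusted p = 3.67e-06). The smallest changes at 72 h were in Eprs, which charges glutamate and proline, at -0.30 ± 0.07 in KH and -0.19 ± 0.07 in DNMT3ABKO cells (adjusted p = 0.0064 and 0.0383). The DNMT3ABKO call of Eprs was lost with no filter, with the groups compared alone, with a replicate block and without most single libraries, and its value was -0.11 without DNMT3ABKO 0 h replicate 2. Wars, which charges tryptophan, and Xpot, which carries tRNA out of the nucleus, lay between, at -0.57 ± 0.09 and -0.59 ± 0.11 in KH cells (adjusted p = 0.000657 and 0.00211).

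The changes can be set beside the promoter element shown above. All 10 tested members that hold it were lower at both times in KH cells and at 144 h in DNMT3ABKO cells, and 9 were lower at 72 h there. Of the 19 tested members with a promoter sequence that does not hold it, 15, 15, 14 and 14 were lower in KH cells at 72 and 144 h and in DNMT3ABKO cells at 72 and 144 h. The median change of the holders was -1.16 and -0.94 in KH and -1.22 and -1.10 in DNMT3ABKO cells, and that of the others -0.76 and -0.67 and -0.80 and -0.66. Psat1, Phgdh and Mthfd2, which had some of the largest falls, do not hold these letters in this window. Over all tested genes with a promoter sequence, 29.2% of the 271 with the element and 21.4% of the 9854 without it were lower in KH cells at 72 h, and 36.5% and 26.8% at 144 h. Higher were 27.7% and 30.3% at 72 h, and 24.7% and 27.6% at 144 h. In DNMT3ABKO cells 31.7% and 23.4% were lower and 33.9% and 35% higher at 72 h. At 144 h there, 38.4% and 29% were lower and 31% and 31.4% higher. The 271 include the 10 tested members that hold the element. These are descriptions, and no test was run on them. The members were listed as genes under Atf4, and many are known to be controlled through this element. The shares among members therefore cannot test its part.

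**Figure D3:**
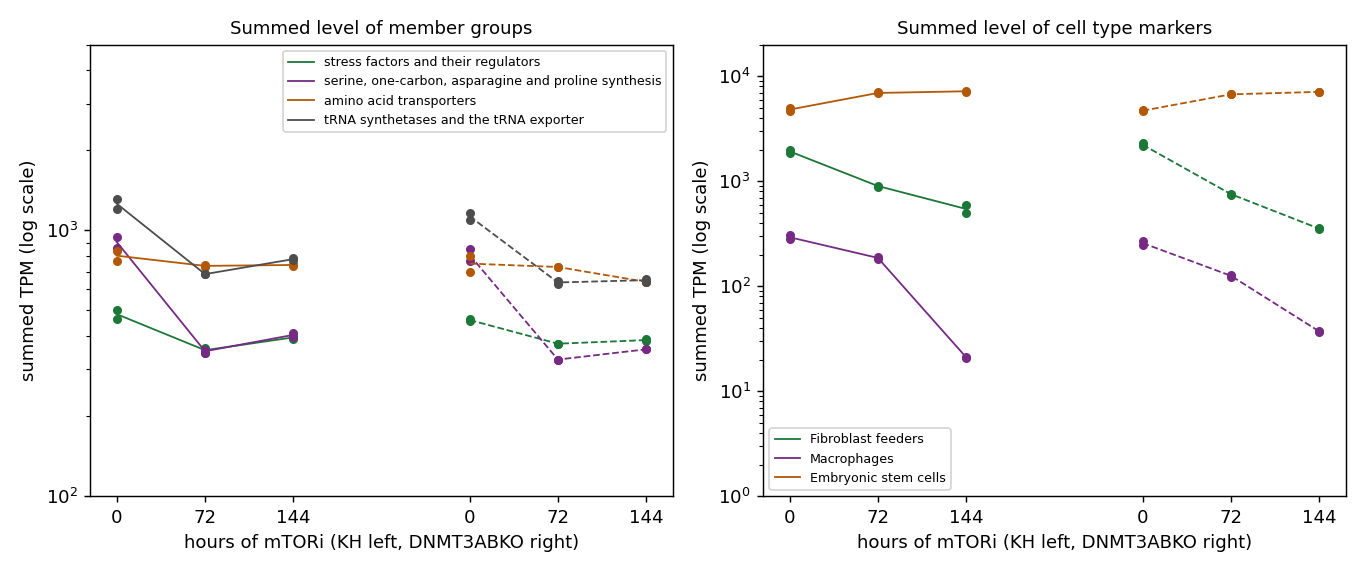
Summed TPM per library (log axes) of the 4 member groups (left) and of 15 fibroblast, 10 macrophage and 10 ES cell genes (right) at 0, 72 and 144 h, KH with solid and DNMT3ABKO with broken lines through the means. Between 72 and 144 h the fibroblast and macrophage sums go on falling in both lines, while the sums of the synthesis enzymes and of the tRNA genes in KH cells rise.

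Between 72 and 144 h some members regained part of their fall. The median log2 change of the tested members over this interval was 0.20 in KH and 0.02 in DNMT3ABKO cells. In KH cells 11 of 34 members were called higher at 144 h than at 72 h, where 7.24% of all genes were, and 3 lower, where 15.6% were. In DNMT3ABKO cells 8 were higher and 4 lower, against 8.81% and 18.5% of all genes. The members that rose in KH cells were Slc6a9 (0.88 ± 0.13, adjusted p = 0.000956), Sesn2 (0.81 ± 0.09, adjusted p = 0.000201), Mthfd2 (0.76 ± 0.10, adjusted p = 0.000627), Slc1a4, Psat1, Sars, Aldh18a1, Nars, Phgdh, Atf5 and Aars (0.71 down to 0.27). Those in DNMT3ABKO cells were Ddit3 (1.05 ± 0.15, adjusted p = 0.000672), Sesn2 (0.69 ± 0.09, adjusted p = 0.000355), Chac1, Aldh18a1, Mthfd2, Atf5, Nars and Sars (0.51 down to 0.18). Without a single library of the times compared, the calls of Aars, Atf5 and Phgdh in KH cells and of Mthfd2, Chac1, Atf5, Sars and Atf3 in DNMT3ABKO cells were lost, and that of Sars also with a replicate block. Apart from Ddit3 in DNMT3ABKO cells, each of the risen genes was called lower at 144 h than at 0 h, with the limits given above for Sesn2. Nupr1, Cebpb and Slc3a2 fell further in both lines, by 1.20, 0.74 and 0.45 on the log2 scale in KH cells (adjusted p = 0.000463, 0.00379 and 0.000533), and Atf3 fell in DNMT3ABKO cells. The summed level of the synthesis enzymes went from 356 and 347 TPM at 72 h to 399 and 410 TPM at 144 h in KH cells and from 327 and 327 to 357 and 357 TPM in DNMT3ABKO cells, against 862 and 947 and 764 and 851 TPM before treatment. That of the tRNA genes went from 684 and 686 to 784 and 776 TPM in KH cells and from 646 and 629 to 641 and 659 TPM in DNMT3ABKO cells. The fibroblast and macrophage sums went down in both lines over the same interval, and the part of that shift in these values was not tested. Without DNMT3ABKO 144 h replicate 1 the calls in DNMT3ABKO cells numbered 7 instead of 12.

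The lines were compared at each time to ask whether loss of de novo methylation changes these genes. At 0 h, 4 members were lower in DNMT3ABKO than in KH cells, where 4.14% of all genes were, and 0 were higher, where 4.92% were (limma, where 1 member reached an unadjusted p under 0.05 upwards and 11 downwards). The 4 were Atf3, Trib3, Chac1 and Aars, the last by -0.23 ± 0.06 (adjusted p = 0.0379). These calls rest on the replicates: a fit of those 2 groups alone calls none. All 4 were lost without KH 0 h replicate 2, where fewer of all tested genes were called too. Without DNMT3ABKO 0 h replicate 2 more members were called, and so were more of all tested genes. A replicate block called 1 member. The count was 2 without DNMT3ABKO 0 h replicate 1, and also without either KH or DNMT3ABKO library at 72 h or either KH library at 144 h. At 72 h, 7 were lower and 2 higher, against 10.0% and 9.26% of all genes. Atf5 (0.43 ± 0.08, adjusted p = 0.00459) and Mthfd2 (0.70 ± 0.10, adjusted p = 0.00116) were higher, and Trib3, Asns, Aldh18a1, Slc7a3, Slc1a4, Aars and Sars were lower, Trib3 the most (-0.67 ± 0.11, adjusted p = 0.00212). With scaling the split at 72 h was 7 lower and 5 higher, and at 0 h 3 lower and 1 higher. Without KH 72 h replicate 1 the count was 4, and without KH 72 h replicate 2 or either DNMT3ABKO 72 h library it was 5. The calls of Slc1a4, Aldh18a1, Asns, Slc7a3 and Aars were among those lost without a single 72 h library, and Aldh18a1 was also lost with a replicate block.

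At 144 h 15 members were lower and 3 higher in DNMT3ABKO than in KH cells, against 15.5% and 11.0% of all genes. The synthesis enzymes gave 5 of the lower calls, the tRNA genes 4, the transporters 3 and the stress factors 3. The largest were Slc1a4 (-0.92 ± 0.10, adjusted p = 0.000146), Slc6a9 (-0.89 ± 0.13, adjusted p = 0.000662), Trib3 (-0.70 ± 0.11, adjusted p = 0.00111) and Sars (-0.62 ± 0.06, adjusted p = 3.77e-05). Slc6a9 stood at 1.49 and 1.70 TPM in KH and at 0.495 and 0.300 TPM in DNMT3ABKO cells at this time. Ddit3 (0.84 ± 0.15, adjusted p = 0.00292), Atf5 (0.40 ± 0.08, adjusted p = 0.00491) and Mthfd2 (0.32 ± 0.10, adjusted p = 0.0423) were higher. Atf4 itself did not differ between the lines by this test at any time (log2 differences of -0.07, 0.11 and -0.09). Without 1 of the 144 h libraries the count of 18 went to 11 and 10 (KH replicates 1 and 2) and to 9 and 10 (DNMT3ABKO replicates 1 and 2). A replicate block ended the calls of Mthfd2, Aldh18a1 and Gars.

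**Figure D4:**
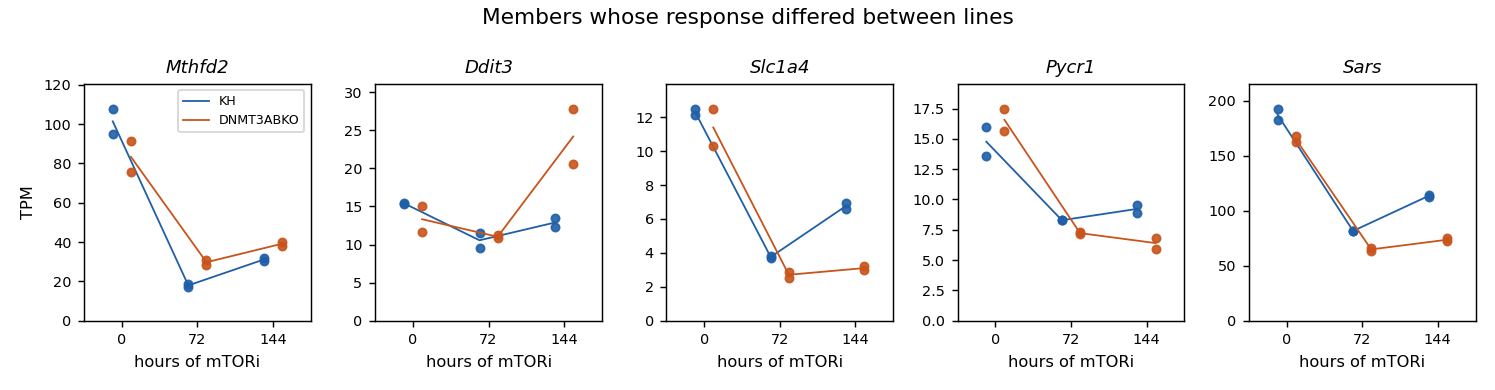
TPM (vertical axes, from 0) at 0, 72 and 144 h of mTORi for the 5 members whose response from 0 h differed between KH (blue) and DNMT3ABKO cells (orange), with 1 point per library and lines through the means. Mthfd2 and Ddit3 end higher in DNMT3ABKO cells, and Slc1a4, Pycr1 and Sars end higher in KH cells.

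The responses themselves differed between lines in few members. The difference in the 72 h response (DNMT3ABKO minus KH, limma interaction contrast) was called for 1 member upwards and 0 downwards, where 3.38% and 1.86% of all genes were (6 and 2 members at an unadjusted p under 0.05). That member was Mthfd2, whose fall was smaller in DNMT3ABKO cells by 0.98 ± 0.14 on the log2 scale (adjusted p = 0.0044). At 144 h 2 members were called upwards and 3 downwards, against 4.89% and 3.70% of all genes. Upwards these were Ddit3 (1.05 ± 0.22, adjusted p = 0.0144) and Mthfd2 (0.60 ± 0.14, adjusted p = 0.0297). Downwards they were Slc1a4 (-0.82 ± 0.15, adjusted p = 0.00735), Sars (-0.44 ± 0.08, adjusted p = 0.00919) and Pycr1 (-0.63 ± 0.14, adjusted p = 0.0255). Slc1a4 and Sars rose again between 72 and 144 h in KH cells by 0.71 and 0.47, and in DNMT3ABKO cells by 0.15 and 0.18 (the first not called, adjusted p = 0.342). With the groups compared alone, Mthfd2, Pycr1 and Sars were not called at 144 h, and Mthfd2 was not with no filter. Some calls at 144 h were lost without single libraries. Ddit3 was not called without DNMT3ABKO 144 h replicate 2 (0.84) or KH 144 h replicate 1 (0.99). Mthfd2 was not called without KH 0 h replicate 2 (0.52) or any 1 of the 144 h libraries (0.56 to 0.65). Pycr1 was not called without KH 0 h replicate 1 (-0.52), KH 144 h replicate 1 (-0.67) or 2 (-0.58), or DNMT3ABKO 144 h replicate 2 (-0.54). The count of 5 at 144 h was 2 without KH 144 h replicate 1 or DNMT3ABKO 144 h replicate 2 and 3 without KH 144 h replicate 2, and the count of 1 at 72 h was 2 without DNMT3ABKO 0 h replicate 1. Without untreated DNMT3ABKO replicate 2, the library of the less alike pair, more members were called at both times. More of all tested genes were called in that fit too, so the rise was not limited to the members. With scaling, 2 members were called upwards and 1 downwards at 72 h and 2 and 4 at 144 h.

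Genes that surround these members in the pathway were counted in the same fit, and the shares of all genes to read them against are 19.5% lower and 28.3% higher in KH cells at 72 h, 23.9% and 27.4% at 144 h, and 21.6% and 34.3%, then 26.2% and 31.4%, in DNMT3ABKO cells. Of 13 tested other targets of Atf4 and CHOP, 10, 10, 9 and 11 were lower in KH cells at 72 and 144 h and in DNMT3ABKO cells at 72 and 144 h, and 1 was higher each time, with medians of -1.08, -0.75, -0.75 and -0.86. The higher one was Gadd45a, which went from 49.5 and 51.9 TPM at 0 h to 113 and 104 TPM at 72 h in KH cells. In DNMT3ABKO cells it went from 40.5 and 40.6 to 90.4 and 87.5 TPM. Pck2, the mitochondrial enzyme that makes phosphoenolpyruvate, dropped at 72 h to a mean of 5.36 TPM from 35.5 TPM in the KH line (-2.52 ± 0.09, adjusted p = 1.5e-07) and to 2.45 TPM from 31.9 TPM in the DNMT3ABKO line (-3.25 ± 0.09, adjusted p = 2.3e-08). Ddit4, which inhibits mTOR complex 1, dropped to 5.86 TPM from 38.5 TPM and to 4.98 TPM from 35.1 TPM in the same lines. Of 14 other cytosolic tRNA synthetases 8 were lower and 1 higher in each of the 4 comparisons, with a median of -0.23 at 72 h in KH cells against -0.95 for the tRNA genes among the members. The largest falls there were in Cars and Yars, which charge cysteine and tyrosine (-0.94 and -0.88 at 72 h in KH cells). Of 17 mitochondrial tRNA synthetases, 9 (52.9%) were higher and 1 lower at 72 h in KH and 8 (47.1%) and 1 in DNMT3ABKO cells, and with scaling the counts were 4 and 2, and 5 and 2. At 144 h, 3 (17.6%) were higher and 3 (17.6%) lower in KH and 4 (23.5%) and 1 in DNMT3ABKO cells. The one lower at 72 h was Lars2 in both lines, which charges leucine (-1.12 ± 0.30 and -2.42 ± 0.30, adjusted p = 0.0111 and 8.79e-05). Its DNMT3ABKO replicates were far apart, at 342 and 263 TPM at 0 h and 82.1 and 36.9 TPM at 72 h.

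Genes upstream of Atf4 did not show a common direction. Of 14 tested genes for eIF2 kinases, the eIF2 phosphatase and eIF2B, 2 (14.3%) were higher and 3 (21.4%) lower in KH cells at 72 h and 3 and 2 in DNMT3ABKO cells, and with scaling 2 and 6, and 3 and 7. Ppp1r15a, the stress-induced phosphatase subunit and itself a target of Atf4 and CHOP, was higher at 72 h, with 62.7 TPM against 45.6 TPM at 0 h in KH cells (0.45 ± 0.09, adjusted p = 0.0024) and 65.0 TPM against 37.5 TPM in the DNMT3ABKO line (0.78 ± 0.09, adjusted p = 5.6e-05). Impact, an inhibitor of the amino acid sensing kinase Gcn2, was higher at 144 h in both lines (0.59 and 0.82). Of 12 ER chaperone genes, listed as genes under Xbp1 and Atf6, 3 were higher and 3 lower at 72 h in KH cells (25% each way, near the shares of all genes), and 0 were higher and 7 lower (58.3%) at 144 h there. The DNMT3ABKO line had 4 higher and 1 lower call at 72 h, then 5 higher and 3 lower calls at 144 h. At 144 h 9 were higher and 1 lower in DNMT3ABKO than in KH cells, against 11.0% and 15.5% of all genes. Of 15 other amino acid transporters, 6 (40%) were higher and 3 (20%) lower at 72 h in KH and 8 (53.3%) and 4 (26.7%) in DNMT3ABKO cells (in KH cells 5 and 7 with scaling), Slc7a7 among them (66.4 to 139 TPM in KH cells). Of 9 other folate and glycine enzymes, 1 (11.1%) was higher and 3 (33.3%) lower at 72 h in KH cells, with Gcsh at -0.62 ± 0.07 (adjusted p = 7.5e-05).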

How the data were processed

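After ERCC RNA had been added and ribosomal RNA removed, the authors mapped reads to mm10 with STAR and measured genes with StringTie. Versions 2.7.3a and 2.0, with cutadapt 2.4, stand in the submitters' processing notes and differ from those in the methods. The deposited values are TPM per gene, 1 library per table, with replicates kept apart. Spike-in rows were not used here. Repeated identifiers (9 to 16 rows per table) were summed.

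Genes that averaged 1 TPM or more across all 12 libraries were fitted as log2(TPM + 1) with limma 3.58.1 (trend, 1 coefficient for each of 6 groups, no covariate), with 11 two-sided contrasts, with calls at an adjusted p under 0.05 (Benjamini-Hochberg over all 15727 genes). This scale understates changes of low genes. The DESeq2 test of the methods needs counts and was not run. Libraries were grouped by their labels. Values in every library were given for members called with an absolute log2 fold change of at least 1 in any contrast (20 members), for members called in a line difference, and for Atf4, Ddit3, Trib3, Asns and Chac1, and further members as examples. The members and all lists were chosen with earlier results of these data known. In simulated data of 15727 genes, 88% of 200 genes changed by 1 on the log2 scale were called in KH cells at 72 h and 69% in the line difference at 144 h. Only those 200 genes were changed there, and each gene had the same spread in all groups. The real KH contrast at 72 h called 7520 genes, so these shares are not the sensitivity of the real contrasts. The fits were repeated with a pseudocount of 0.1 TPM, no filter, median-ratio scaling, only the groups in the contrast, a replicate block, a minimum change, and leaving out each library. R 4.3.3, Python 3.11.15, pandas 2.3.3 and matplotlib 3.10.9 were used. 1 promoter sequence is not reported here.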

Additional observations from a re-analysis of the deposited data

Results flagged for a closer look

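6 responses differed between the lines by the interaction contrast of limma, in 5 members, each given as DNMT3ABKO minus KH on the log2 scale. Mthfd2 differed by 0.98 ± 0.14 (SE) at 72 h (adjusted p = 0.0044) and by 0.60 ± 0.14 at 144 h (adjusted p = 0.0297). Both of its treated DNMT3ABKO libraries lay above both KH libraries at each time. Ddit3 differed by 1.05 ± 0.22 at 144 h (adjusted p = 0.0144), with 20.6 and 27.8 TPM in DNMT3ABKO and 12.3 and 13.5 TPM in KH cells. Slc1a4 differed by -0.82 ± 0.15 (adjusted p = 0.00735), Sars by -0.44 ± 0.08 (adjusted p = 0.00919) and Pycr1 by -0.63 ± 0.14 (adjusted p = 0.0255) at 144 h, all 3 lower in both late DNMT3ABKO libraries than in both late KH libraries. Every one of these contrasts includes untreated DNMT3ABKO cells, whose replicates were the least alike (residual SD of 0.272 on the log2 scale, against 0.133 to 0.176 in the other groups). The part of that spread in these differences was not tested.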

How the results depend on the processing

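Of 180 called pairs of member and contrast, 136 were called under every alternative fit, the minimum change not counted among these, and 0 changed direction. A minimum absolute log2 fold change of 1 left 16, 12, 16 and 14 calls from 0 h (KH at 72 and 144 h, DNMT3ABKO at 72 and 144 h), 1 and 2 between 72 and 144 h, 0 between lines at 0, 72 and 144 h, and 0 and 1 for the line differences at 72 and 144 h. For DNMT3ABKO against KH at 0 h, no filter gave 2, only those groups 0 and the replicate block 1, instead of 4. Only the groups in the contrast gave 16 instead of 9 between lines at 72 h and 2 instead of 5 for the 144 h line difference. Scaling gave 3 instead of 1 for the 72 h line difference. The cause was not tested. Leaving out 1 library gave 28 to 30 and 28 to 31 calls in KH cells at 72 and 144 h, 24 to 29 and 26 to 31 in DNMT3ABKO cells, 11 to 19 and 7 to 15 between 72 and 144 h, 0 to 16, 4 to 10 and 9 to 22 between lines at 0, 72 and 144 h, and 1 to 6 and 2 to 8 for the line differences. Where this leaves 1 library in a group, that library is assumed to vary like the others. The number of calls over all tested genes also moved between these fits. The study's reporting notes say that time points of a replicate were handled side by side, and the labels do not tie replicate numbers to such sets. Same-numbered replicates of a line did not deviate together (correlations of -0.104 to 0.0996 across genes), so the numbers were not taken as pairs, and a replicate block gave 30, 30, 14, 26, 27, 11, 1, 8, 15, 1 and 5 calls, in the order of KH, DNMT3ABKO, lines and line differences. Depth is unknown from the tables, and the lowest members (Vldlr, Slc6a9, Chac1 and Slc7a11) are the least certain on this scale.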
